A study of Mus musculus with 7 samples.

Results

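Lymphoid priming is the low-level transcription of lymphoid genes in blood stem and progenitor cells before any lineage commitment. Of the genes measured here, 9 were taken as the lymphoid priming genes, out of 12393 named genes on the array. These are Flt3, Il7r, Il15, Notch1, Ikzf1, Satb1, Ebf1, Dntt and Plac8. Every probe set annotated to one of them alone was used, which gave 17 of 22626 probe sets, and none of the probe sets that name several genes held a member. The first choice was made by function, for genes known from lymphoid-primed progenitors. Plac8 and Il15 were chosen by their measured signal, lower in the mutant cells, so their genotype difference is given as a description with no test. Flt3 and Satb1 were also known to be lower when the 9 were brought together.

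Blood stem cells were sorted from fetal livers of mice at embryonic day 14.5 by the presence of CD150, c-Kit and Sca-1 and the absence of lineage antigens. Antibodies to T cell antigens (CD3, CD4, CD8a), to B220 on B cells, and to the erythroid and granulocyte antigens TER-119 and Gr-1 defined the lineage gate. Of the 7 samples, 3 came from embryos homozygous for TFIIAα-β nc, a non-cleavable form of the TFIIAα-β precursor (TFIIA nc/nc below), and 4 from wild-type embryos of the same kind of cross between heterozygous parents. The TFIIA nc/nc samples were made from 2, 2 and 4 embryos, against 1, 1, 4 and 3 for wild type, with littermates of a single genotype combined. The mutation was present in every cell of the embryo, so the stem cells and their liver surroundings carried it alike. RNA of each sample was hybridised to 1 Affymetrix array.

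As background, stem cells that begin to lose self-renewal raise the receptor FLT3 on their surface and become multipotent progenitors with lymphoid potential. IL-7 receptor signalling and the nuclear factors Ikaros and EBF1 then lead towards B cells, while NOTCH1 signalling in the thymus directs progenitors to the T lineage. Terminal transferase, the product of Dntt, adds bases at the joints of antigen receptor genes once they are rearranged. TFIIA acts at an earlier and more general step, where it steadies the TATA-binding protein on promoters, and its α-β precursor is normally cut by the protease Taspase1.

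Since TFIIA works at the promoter, the promoter windows of the members are shown first. RefSeq gave 15 windows for 8 of the 9 members in build GRCm38.p6, each from 250 bases before to 50 bases after an annotated start. The windows printed belong to members with the lower signals described below, except Il15, the member without a window. Capitals mark matches to the letters TGGGAA on either strand, a core shared by Ikaros and by RBPJ, the DNA-binding partner of NOTCH1, so that a match cannot be assigned to one of them. The upstream Plac8 window lies at chr5:100572156-100572455 on the minus strand and the downstream one at chr5:100563047-100563346. The Flt3 window lies at chr5:147400440-147400739 and the Satb1 window shown at chr17:51812005-51812304, all on the minus strand. RefSeq gave 5 Satb1 windows, and the one printed was picked as 1 of the 2 with a TGGGAA match, while 3 have none. The Satb1 window printed partly overlaps another of them, so the 15 windows are not all separate stretches.
Plac8 upstream: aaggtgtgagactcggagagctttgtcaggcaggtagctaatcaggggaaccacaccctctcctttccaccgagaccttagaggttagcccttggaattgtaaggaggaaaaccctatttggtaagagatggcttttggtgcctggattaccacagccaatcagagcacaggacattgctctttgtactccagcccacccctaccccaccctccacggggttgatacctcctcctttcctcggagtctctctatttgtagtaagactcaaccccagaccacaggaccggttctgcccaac
Plac8 downstream: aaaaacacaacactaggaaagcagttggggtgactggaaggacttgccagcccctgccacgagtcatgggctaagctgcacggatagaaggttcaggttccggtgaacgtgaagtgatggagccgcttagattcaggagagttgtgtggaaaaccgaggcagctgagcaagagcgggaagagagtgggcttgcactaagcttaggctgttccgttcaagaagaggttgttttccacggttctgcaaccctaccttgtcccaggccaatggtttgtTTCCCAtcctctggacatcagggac
Flt3: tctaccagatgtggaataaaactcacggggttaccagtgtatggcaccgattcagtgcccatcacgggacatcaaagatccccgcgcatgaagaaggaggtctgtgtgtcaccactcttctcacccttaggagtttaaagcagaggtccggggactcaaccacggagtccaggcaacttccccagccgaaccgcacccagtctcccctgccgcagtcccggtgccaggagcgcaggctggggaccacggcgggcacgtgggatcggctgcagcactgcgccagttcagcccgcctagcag
Satb1, 1 of 5 windows: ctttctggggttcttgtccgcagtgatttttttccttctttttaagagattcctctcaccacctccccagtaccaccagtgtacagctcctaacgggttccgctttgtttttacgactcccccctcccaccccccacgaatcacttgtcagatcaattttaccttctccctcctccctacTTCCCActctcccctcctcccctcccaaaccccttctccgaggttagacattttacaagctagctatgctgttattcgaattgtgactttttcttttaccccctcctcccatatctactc

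The TATA box letters TATAAA were found on neither strand in any of the 15 windows, against 13.6% of 32851 RefSeq promoter windows of that length. The letters TGGGAA were found in 4 of the 15, once each in the downstream Plac8 window, in 1 of the Ebf1 windows and in 2 of the Satb1 windows, against 25.6% of all windows. The downstream Plac8 match began 25 bases after the start and the Satb1 match printed above 70 bases before it. The ETS letters CCGGAAG were in none of them (8.86% of all windows) and nor was the EBF1 motif, TCCC and GGGA with any 2 bases between (0.904%). The interferon response motif, GAAA and GAAA with any 2 bases between, was in 1 Ebf1 window (3.44% of all windows), 155 bases before the start. Both strands were searched for each motif. A match of letters does not show that a factor binds, and an absent match says only that the letters are not in the window.

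The arrays correlated with each other at 0.966 to 0.991 over all probe sets, and their median log2 intensity was 3.69 to 3.82. Signals of sinusoidal endothelium and of hepatic cells stood apart from the genotypes. Averaged over 15 endothelial markers, log2 intensity reached 6.52, 6.99 and 3.63 in the TFIIA nc/nc samples (replicates 1 to 3), against 6.80, 3.59, 3.81 and 3.53 in wild-type replicates 1 to 4. Hepatoblast and hepatocyte markers (12 of 13 measured) averaged 4.33, 4.68 and 3.35 in TFIIA nc/nc, against 3.95, 3.42, 3.34 and 3.45 in wild type. They were thus highest in the same arrays as the endothelial markers. Macrophage markers (13 of 14 measured) averaged 3.84 to 4.89 in TFIIA nc/nc and 2.66 to 4.26 in wild type. The normalization returns no zero, so no marker is listed at 0. Of 12 measured stem cell genes 10 lay above the median of every array, Kit and Slamf1 (which encodes CD150) among them. Gtf2a1, which encodes the mutated TFIIA subunit, differed by 1.14 (SE 0.50; limma, Benjamini-Hochberg adjusted p = 0.946) on its brightest probe set and by 0.58 and −0.22 on the others. Its transcript need not change with the mutation, so it does not check the genotype labels.

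The members lay on both sides of the array median, and no detection calls were used. Flt3, Satb1, Notch1, Il15 and Plac8 were measured above the median of every array on their brightest probe set. Il7r, Dntt, Ebf1 and Ikzf1 lay below it on every array. By the brightest probe set of each gene, 7 of the 9 members read lower and 2 higher in TFIIA nc/nc, a count in which Plac8 and Il15 were lower by choice. Without them 5 of 7 members read lower, beside 51.8% of all genes, and 11 of 15 probe sets, beside 51.8% of all probe sets. The median difference of the 9 was −0.43 on the log2 scale, and that of the 7 not added for their level was −0.18, beside −0.01 over all genes. Flt3 and Satb1, among these 7, were known to be lower beforehand, so the counts and medians give no support of their own. The rest of the 7 differed by −0.43 (Ebf1), −0.18 (Dntt), −0.02 (Notch1), 0.06 (Il7r) and 0.30 (Ikzf1). Differences are in log2 units, with the wild-type mean subtracted from the TFIIA nc/nc mean. In bulk RNA, fewer cells of a kind and less RNA per cell cannot be told apart.

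**Figure D1:**
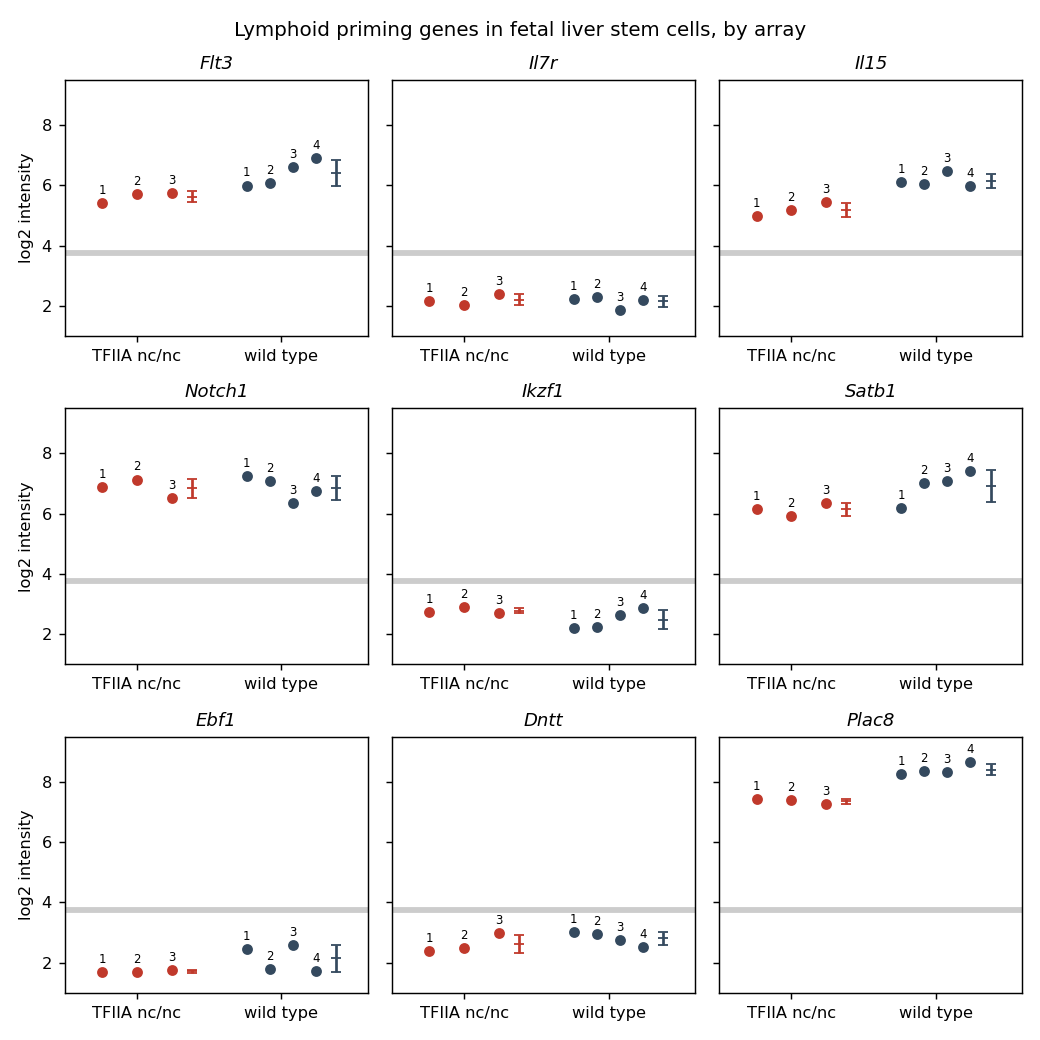
Log2 intensity of the brightest probe set of each of the 9 genes, with TFIIA nc/nc (red, n = 3) left of wild type (dark, n = 4). Points are arrays with their replicate number, bars are mean ± SD, and the grey band spans the array medians of 3.69 to 3.82. Flt3, Il15 and Plac8 do not overlap between the genotypes, as for 3.07% of all genes in that direction. Il15 and Plac8 were chosen for their lower level. Il7r, Ikzf1, Ebf1 and Dntt lie under the band.

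Over all genes, 1 of 12393 passed an adjusted p of 0.05 in either direction (0.00807%), and it was not a member. None of the 7 members tested passed, and the smallest adjusted p among them was 0.946 (limma, Benjamini-Hochberg). At an unadjusted limma p under 0.05, 2 of the 7 read lower in TFIIA nc/nc, Flt3 and Satb1, beside 2.41% of all genes, and 0 read higher, beside 2.02% of all genes. Without overlap between the groups, 1 of the 7 was lower, Flt3, beside 3.07% of all genes, and 0 of the 9 members were higher, beside 3.23%. Over the 15 probe sets of these 7 genes, 3 were lower at an unadjusted p under 0.05, beside 2.09% of all probe sets, and 0 higher, beside 1.91%. Without overlap 2 of the 15 were lower, beside 2.81%, and 0 of the 17 were higher, beside 2.85%. With an adjusted p over all probe sets, 1 of 22626 passed (0.00442%), again not a member. As Flt3 and Satb1 were known to be lower when the members were chosen, these shares give no support of their own.

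Flt3 encodes the receptor tyrosine kinase whose rise marks the loss of long-term self-renewal and the gain of lymphoid potential. Its single probe set read 5.40, 5.72 and 5.75 in TFIIA nc/nc replicates 1 to 3, against 5.99, 6.08, 6.60 and 6.90 in wild-type replicates 1 to 4. Every TFIIA nc/nc sample lay below every wild-type sample, with a gap between the nearest samples smaller than the spread among wild-type samples. TFIIA nc/nc averaged 5.62 ± 0.19 (SD, n = 3), against 6.39 ± 0.43 (SD, n = 4) for wild type, a 1.70-fold lower level. The difference was −0.77 (SE 0.24, 95% interval −1.30 to −0.24; limma, adjusted p = 0.946 over all genes), at place 90 of 12393 by p. Between 67.5% and 81.6% of probe sets lay below it, depending on the array. FLT3 was not among the antigens of the sort.

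Satb1, a nuclear protein that folds chromatin into loops and is expressed in lymphoid cells and their precursors, was covered by 3 probe sets. The brightest read 6.15, 5.94 and 6.35 in TFIIA nc/nc, against 6.19, 7.02, 7.08 and 7.42 in wild type. Wild-type replicate 1 lay among the TFIIA nc/nc samples and the other wild-type samples lay above all of them. The difference was −0.78 (SE 0.27, 95% interval −1.39 to −0.17; limma, adjusted p = 0.946 over all genes). The middle probe set read 5.48, 5.64 and 5.89 in TFIIA nc/nc, against 6.18, 6.51, 5.93 and 6.82 in wild type, with no overlap and a difference of −0.69 (SE 0.22). The dimmest read 4.55, 4.34 and 4.70 in TFIIA nc/nc, against 4.08, 5.69, 4.88 and 5.29 in wild type, so that its lowest sample was wild-type replicate 1. Its difference was −0.45 (SE 0.33). The 3 probe sets thus had the same sign but ordered the wild-type samples differently. Replicate 1 was the lowest wild-type sample on the brightest and the dimmest. On the middle probe set the lowest was replicate 3 (5.93), which was second highest (7.08) on the brightest.

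Plac8, a small cysteine-rich protein of blood progenitors, was added for its lower level and is described without a test. It read 7.42, 7.39 and 7.26 in TFIIA nc/nc, against 8.25, 8.37, 8.32 and 8.67 in wild type. TFIIA nc/nc averaged 7.36 ± 0.08 (SD, n = 3), against 8.403 ± 0.18 (SD, n = 4) for wild type, a difference of −1.05, or 2.06-fold lower in TFIIA nc/nc. The samples of each genotype lay close together, and the groups were separated by more than the range within either. Il15, the cytokine that sustains natural killer cells and memory CD8 T cells, was the other addition. It read 4.97, 5.17 and 5.43 in TFIIA nc/nc, against 6.10, 6.04, 6.46 and 5.96 in wild type, a difference of −0.95, or 1.93-fold lower in TFIIA nc/nc. Its groups did not overlap either. Each of these genes had 1 probe set, so no other probe set can be set beside it.

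Notch1, the receptor that commits progenitors to the T lineage, did not separate the genotypes. Its brightest probe set read 6.87, 7.13 and 6.52 in TFIIA nc/nc, against 7.26, 7.07, 6.37 and 6.74 in wild type. The difference was −0.02 (SE 0.24, 95% interval −0.56 to 0.52; limma, adjusted p = 0.995 over all genes), an interval that holds changes of either sign. The sign turned when the number of embryos was a covariate (0.0857), when only samples of 2 or more embryos were used (0.287), and without TFIIA nc/nc replicate 3 (0.142), wild-type replicate 1 (0.114) or wild-type replicate 2 (0.0523). The dimmer probe set read 4.39, 4.99 and 4.28 in TFIIA nc/nc, against 5.39, 4.77, 4.18 and 4.61 in wild type, a difference of −0.19 (SE 0.29). The highest wild-type sample was replicate 1 on both, and the highest TFIIA nc/nc sample replicate 2 on both.

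The remaining receptor and nuclear genes were dim throughout. Il7r, the IL-7 receptor α chain, read 2.17, 2.04 and 2.40 in TFIIA nc/nc, against 2.23, 2.29, 1.86 and 2.200 in wild type, on the brighter of 2 probe sets. Its difference was 0.06 (SE 0.17, 95% interval −0.31 to 0.43), and only 6.0% to 28.0% of probe sets lay below it. The sign turned without TFIIA nc/nc replicate 3 (−0.0406) or without wild-type replicate 3 (−0.0371). Ikzf1, which encodes Ikaros, read 2.75, 2.89 and 2.71 in TFIIA nc/nc, against 2.202, 2.25, 2.63 and 2.88 in wild type on its single probe set. Its difference was 0.30 (SE 0.19, 95% interval −0.14 to 0.73), with wild-type replicate 4 inside the TFIIA nc/nc range, and it was 0.0306 in samples of 2 or more embryos. At such levels a probe set may not follow its transcript, and the normalization compresses differences.

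Ebf1, the factor that starts the B cell programme, read 1.69, 1.70 and 1.77 in TFIIA nc/nc, against 2.45, 1.81, 2.60 and 1.74 in wild type on the brightest of 3 probe sets. The difference of −0.43 (SE 0.23) came with wild-type replicates 1 and 3 above the rest, and the other probe sets differed by −0.07 and −0.005. Dntt read 2.40, 2.50 and 2.98 in TFIIA nc/nc, against 3.03, 2.94, 2.74 and 2.53 in wild type on the brightest of 3 probe sets. Its difference was −0.18 (SE 0.19), and the other probe sets differed by −0.19 and 0.22. The probe set that differed by 0.22 carries the suffix _x_at, which Affymetrix gives to sets whose probes may bind other transcripts as well. Leaving out TFIIA nc/nc replicate 3 gave a Dntt difference of −0.357, leaving out replicate 1 gave −0.0672 and leaving out replicate 2 gave −0.118. Leaving out wild-type replicate 1 gave −0.107 and wild-type replicate 4 −0.275. In the 4 arrays with low endothelial transcripts it was 0.245. The Ebf1 difference was −0.281 without wild-type replicate 3 and −0.168 over the mean of its probe sets.

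**Figure D2:**
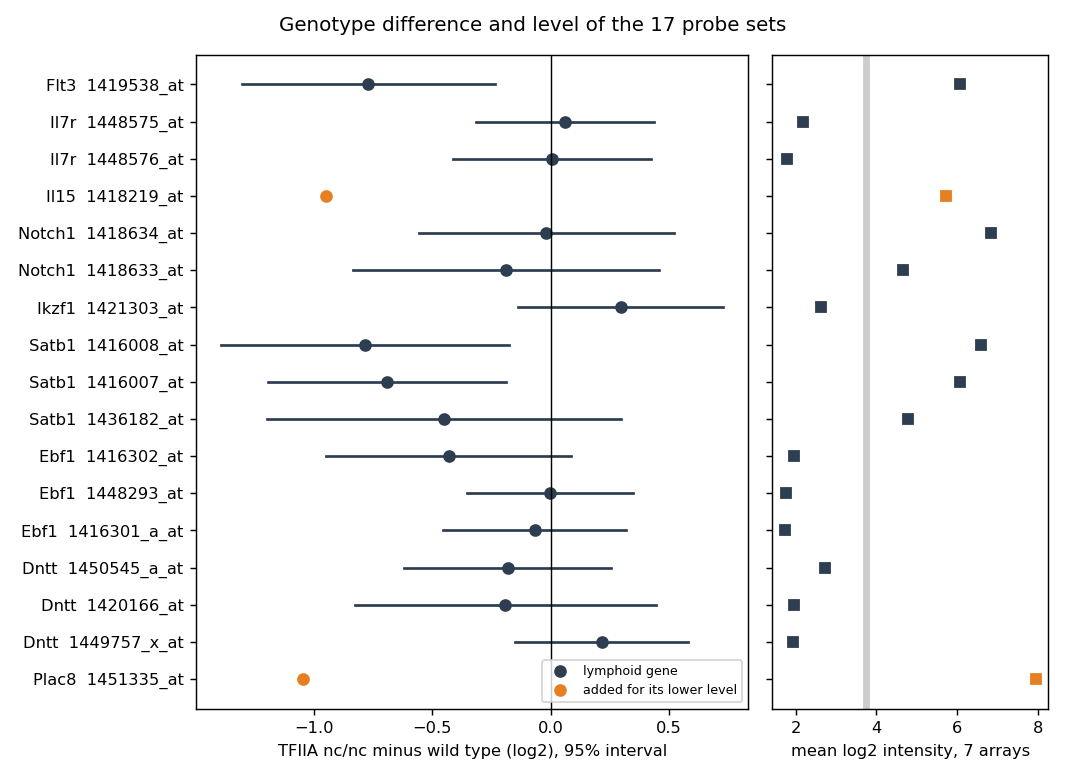
Left, the genotype difference (TFIIA nc/nc minus wild type, log2) of the 17 probe sets, with the 95% interval of the limma fit for the lymphoid genes and none for Plac8 and Il15 (orange), which were chosen for this difference. Right, the mean log2 intensity over 7 arrays, with the array medians as a grey band. The Flt3 interval and 2 of the 3 Satb1 intervals lie below 0, and the Il7r, Ikzf1, Ebf1 and Dntt probe sets, left of the band, lie between −0.43 and 0.30.

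The differences were also taken within arrays of like endothelial signal. The arrays with high endothelial transcripts also had the highest hepatic marker means, so the split is not one of endothelial signal alone. In the 3 arrays with high endothelial transcripts, the brightest Satb1 probe set averaged 6.04 in the 2 TFIIA nc/nc samples against 6.19 in the wild-type sample, a difference of −0.15. In the other 4 arrays it read 6.35 in the TFIIA nc/nc sample against a mean of 7.17 in the 3 wild-type samples, a difference of −0.82. The middle Satb1 probe set differed by −0.62 in the high arrays and by −0.53 in the low arrays, and the dimmest by 0.37 and −0.58. Flt3 differed by −0.43 in the high arrays and by −0.78 in the low arrays, Plac8 by −0.85 and −1.19, and Il15 by −1.03 and −0.72. Whether these within-group differences differ from each other was not tested, since single arrays stand on one side. Once the endothelial mean entered the fit as a term, the Satb1 difference was −0.506 (SE 0.204; limma, adjusted p = 0.936) and the Flt3 difference −0.626 (SE 0.239). The part of endothelial, hepatic or macrophage RNA in these differences was not tested further.

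**Figure D3:**
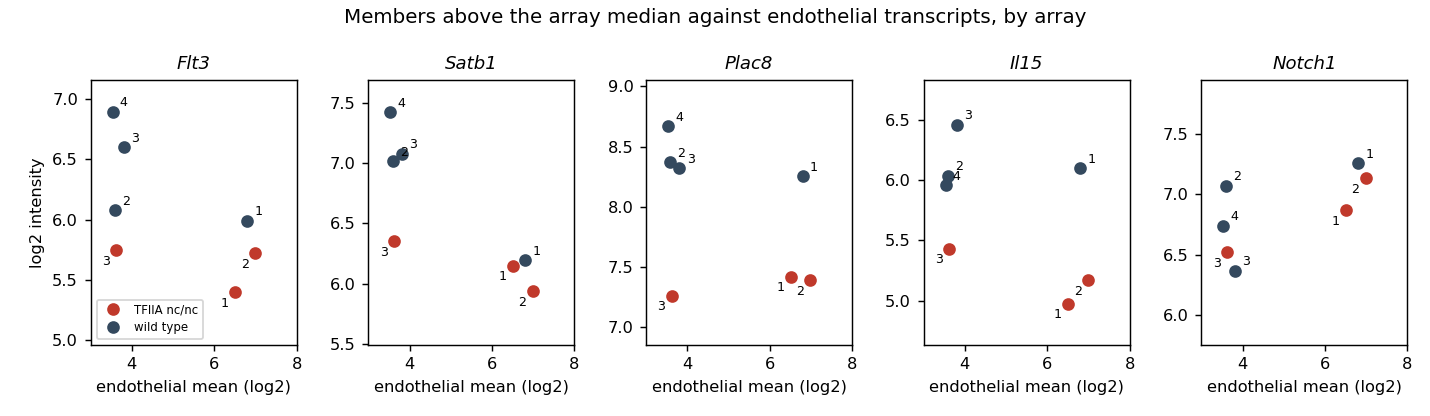
Log2 intensity of the 5 members above the array median (vertical) against the mean log2 intensity of 15 endothelial markers (horizontal), 1 point per array with its replicate number, TFIIA nc/nc in red and wild type dark. On the right stand 3 arrays, in which Satb1 read 6.15 and 5.94 in TFIIA nc/nc (replicates 1, 2) against 6.19 in wild type (replicate 1).

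The measured partners of these receptors showed few differences, and neither Flt3l nor Il2rg was among them. Of 14 measured genes of IL-7, IL-15 and FLT3 signalling and related cytokine receptors, 9 read lower and 5 higher in TFIIA nc/nc. Of these, 0 passed the adjusted threshold in limma, with a median of −0.045 beside −0.01 over all genes. At an unadjusted p under 0.05, 2 were lower, beside 2.41% of all genes. They were Crlf2, the receptor chain that pairs with IL-7Rα to bind TSLP, and Il4ra. Crlf2 read 7.24, 6.997 and 7.20 in TFIIA nc/nc, against 7.52, 7.61, 7.97 and 7.55 in wild type, a difference of −0.51 (SE 0.16). Its groups did not overlap, as for 3.07% of all genes in that direction, while the IL-7Rα chain itself was dim. Il4ra differed by −0.45 (SE 0.17) and Tslp, a ligand of that receptor, by −0.26 (SE 0.25), both from dim probe sets. The kinase Jak1 and the IL-15 receptor chain Il15ra differed by 0.004 and 0.13.

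In the Notch pathway 12 of 22 measured genes read lower and 10 higher, none passed the adjusted threshold in limma, and the median was −0.03. Maml1, a coactivator of the Notch complex, read 5.75, 5.83 and 5.70 in TFIIA nc/nc, against 6.21, 6.09, 5.92 and 6.16 in wild type, a difference of −0.34 (SE 0.14). Lfng, a glycosyltransferase that modifies Notch receptors, differed by −0.45 (SE 0.19), and the target Heyl by 0.38 (SE 0.26), both from dim probe sets. Heyl read 3.70 in TFIIA nc/nc replicate 1, against 2.42 to 2.90 in all other samples. Maml1 and Lfng were the 2 genes of this list with an unadjusted p under 0.05, both lower, beside 2.41% of all genes lower and 2.02% higher. Notch4, an endothelial receptor, read 3.79, 4.98 and 2.63 in TFIIA nc/nc, against 4.50, 2.55, 2.93 and 2.73 in wild type, high in the arrays with endothelial transcripts.

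Among 22 measured lymphoid transcription factors 14 read lower and 8 higher, 0 passed the adjusted threshold in limma, and the median was −0.07. Spi1, which encodes PU.1 and is needed in lymphoid and myeloid progenitors, read 4.11, 4.32 and 4.74 in TFIIA nc/nc, against 4.48, 4.77, 5.83 and 5.75 in wild type. Its difference was −0.82 (SE 0.34) and the only one of the list with an unadjusted p under 0.05 (2.41% of all genes were lower at that p), although its groups overlapped. Hhex, a homeobox factor, differed by −0.35 (SE 0.16) and Bcl11a, a zinc finger factor required for lymphoid progenitors, by −0.24 (SE 0.14), each without overlap (3.07% of all genes). Ets1 and Id3 followed the endothelial arrays. Ets1 read 7.22, 7.88 and 4.71 in TFIIA nc/nc, against 7.603, 5.32, 5.30 and 5.48 in wild type. Id3 read 6.92, 7.11 and 5.40 in TFIIA nc/nc, against 6.98, 5.17, 4.95 and 4.93 in wild type.

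Surface and homing genes of lymphoid-primed progenitors had the lowest median of the lymphoid lists. Of 11 measured, 9 read lower and 2 higher, beside 51.8% of all genes lower, with a median of −0.25, and 0 passed the adjusted threshold in limma. At an unadjusted p under 0.05, 4 were lower, beside 2.41% of all genes, and 1 of the 4, Selplg, was known to be lower when the list was drawn up. Selplg, the P-selectin ligand PSGL-1 that serves thymus homing, read 6.03, 6.10 and 6.12 in TFIIA nc/nc, against 6.71, 6.79, 7.22 and 7.002 in wild type (difference −0.85, SE 0.16; limma, adjusted p = 0.671). Cxcr4, the receptor for CXCL12, read 3.46, 3.93 and 4.02 in TFIIA nc/nc, against 4.35, 4.75, 4.86 and 5.40 in wild type (difference −1.04, SE 0.25; limma, adjusted p = 0.946). Its TFIIA nc/nc values lay near the medians of those arrays (3.77, 3.82 and 3.75). Neither Selplg nor Cxcr4 overlapped between the genotypes, as for 3.07% of all genes in that direction. The cytokine Ltb differed by −0.82 (SE 0.27) and the receptor Cd27 by −0.76 (SE 0.27), each with wild-type replicate 1 within the TFIIA nc/nc range.

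Genes of committed B and T cells were at the dim end. Of 20 measured, 3 lay above the median of every array, the B cell receptor component Cd79b, the kinase Zap70 and the widely expressed Cd24a. In all 13 read lower and 7 higher with a median of −0.06, 0 passed the adjusted threshold in limma, and none reached an unadjusted p under 0.05. Igll1, a surrogate light chain, differed by −0.33 (SE 0.18), Cd79b by −0.38 (SE 0.21) and Thy1 by 0.27 (SE 0.17). Rag1 read 1.80 to 2.18 in TFIIA nc/nc and 1.62 to 2.77 in wild type, and Rag2 read 2.37 to 2.62 in TFIIA nc/nc and 2.39 to 2.81 in wild type. Of the antigens used in the lineage gate, Cd3e read 2.99 to 3.57 in TFIIA nc/nc and 3.07 to 3.33 in wild type. Cd8a read 3.09 to 3.47 in TFIIA nc/nc and 3.14 to 3.72 in wild type.

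**Figure D4:**
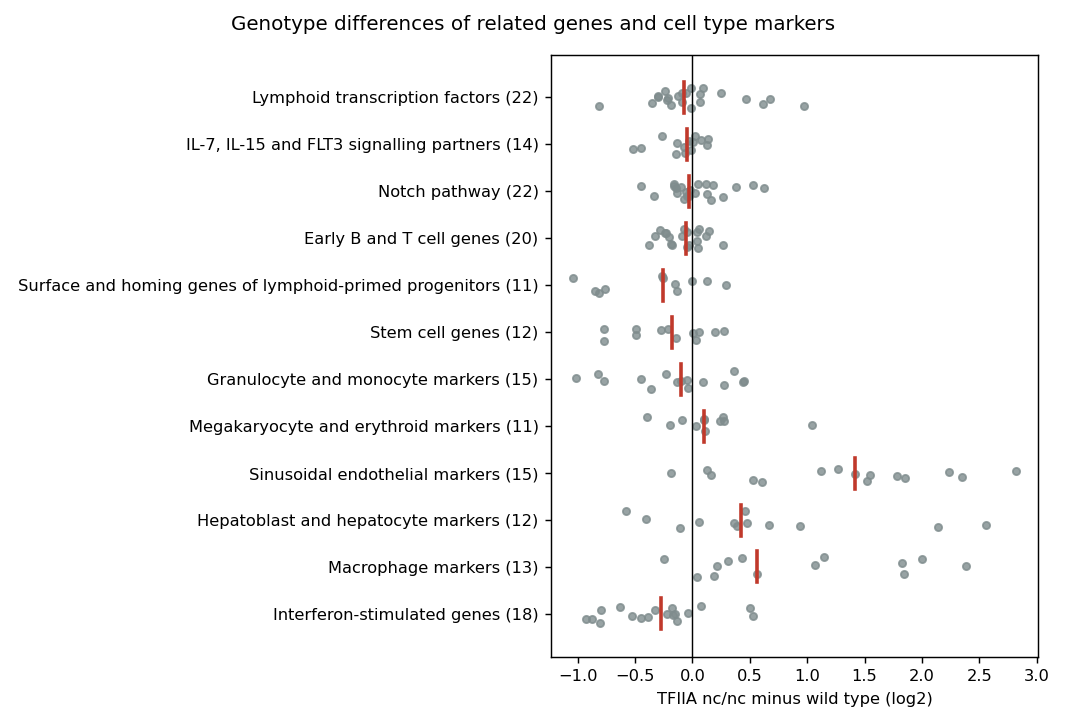
Genotype difference (TFIIA nc/nc minus wild type, log2) of every measured gene of 12 lists, 1 point per gene with small vertical scatter, the median in red and the number of measured genes in parentheses. Lymphoid lists have medians from −0.25 to −0.03 and the sinusoidal endothelial markers one of 1.41. The endothelial mean did not separate the genotypes, with TFIIA nc/nc replicate 3 at 3.63, inside the wild-type range of 3.53 to 6.80.

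The patterns most like those of the members were found among 3924 other genes with a mean log2 intensity of 6 or more, by Pearson r over the 7 arrays. These values are descriptions, since the highest of many were taken and all come from the same 7 arrays. Flt3 was followed by Fam117a (r = 0.993), Ip6k1 (0.982) and Pnrc1 (0.979). Fam117a read 7.34, 7.49 and 7.55 in TFIIA nc/nc, against 7.66, 7.73, 7.99 and 8.29 in wild type, the same order of samples as Flt3. Satb1 was followed by Tbl1x (0.982), Scamp2 (0.977) and Tspan13 (0.973). Tbl1x read 7.31, 7.27 and 7.44 in TFIIA nc/nc, against 7.26, 7.70, 7.83 and 8.06 in wild type, with wild-type replicate 1 low as in Satb1. Plac8 was followed by Ramp1 (0.953), Lgals1 (0.938) and H2az2 (0.936), and Notch1 by Zfp46 (0.948), Dctn1 (0.928) and Tpp1 (0.913). Ramp1 read 7.98, 7.71 and 8.05 in TFIIA nc/nc, against 8.57, 8.67, 8.84 and 9.001 in wild type.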

How the data were processed

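The deposited values are intensities per probe set on a linear scale, made by the authors. Per the submitters' processing notes they used RMA and Affymetrix Expression Console (versions: not given in the sources used here). This method corrects background, normalizes between arrays and summarises probes, and it gives dim probe sets a value too. Log2 was taken with no pseudocount. Of 22690 probe sets 64 controls were left out. Probe sets were named by GEO's platform annotation, and symbols were brought up to date by Entrez identifier from RefSeq genes of GRCm38.p6 (12369 of 12393 genes matched). A gene was represented by its probe set with the highest mean. All 22626 probe sets were fitted with lmFit and eBayes of limma 3.58.1 (R 4.3.3), 3 TFIIA nc/nc against 4 wild-type arrays, without covariates. P-values are 2-sided and adjusted by Benjamini-Hochberg over the genes or over the probe sets, with a threshold of 0.05. The fit was tested on simulated data. The members and the 12 gene lists were chosen with earlier results of these data known. Named are all members, Gtf2a1, up to 3 genes of smallest p per list, and the 3 genes most correlated with each member whose mean log2 was at least 6. Other genes named (such as Notch4, Ets1, Id3, Rag1, Rag2, Cd27, Jak1, Il15ra, Bst2, Cd3e and Cd8a) were chosen after their values were seen. Array number limits the precision. Alternatives covered the probe set, filters, normalization, moderation, weights, covariates and left-out arrays. Scan dates and detection calls were not used here. The labels call the samples biological replicates. Plots used matplotlib 3.10.9.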

Additional observations from a re-analysis of the deposited data

Results flagged for a closer look

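In wild type the mean of the sinusoidal endothelial markers had 1 sample far from the others, replicate 1 at 6.80 against 3.53 to 3.81 in the other 3 samples. The gap to the nearest sample was 0.915 of the whole wild-type range. It was the only such case among 29 wild-type groups checked (17 probe sets of the members and 12 list means), and chance gives about 1 in 20. Groups of 3 samples, such as TFIIA nc/nc, are too small for this check. The effect of this array on the lymphoid genes is given by the values without it: the Satb1 difference was then −1.03 and the Flt3 difference −0.903, against −0.78 and −0.77 with it.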

How the results depend on the processing

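Flt3, Satb1, Plac8 and Il15 read lower in TFIIA nc/nc under all 21 alternatives, with differences of −1.13 to −0.601, −1.1 to −0.506, −1.19 to −0.957 and −1.07 to −0.721, and none of the 7 tested members passed the threshold under any of them (lowest adjusted p 0.15, for Flt3 and Satb1 with pooled samples only). Plac8 and Il15 were chosen for their lower level in these same arrays, and Flt3 and Satb1 were known to be lower in them. Their constant sign thus gives no support of its own. Level filters and moderation leave the difference of a given probe set unchanged, so they could not turn its sign. The 4 arrays with low endothelial transcripts were taken as an alternative after seeing the data. Notch1 turned sign with embryo number as covariate (0.0857) and with samples of 2 or more embryos (0.287), and ranged from −0.182 to 0.142 when each array was left out. Il7r ranged from −0.0406 to 0.144 when each array was left out, and Dntt was 0.245 in the 4 arrays with low endothelial transcripts. The causes were not tested. The number of all genes past the threshold was 1. It was 0 above the median level, with the log2 6 filter, without moderation and in the 4 arrays with low endothelial transcripts, 2 with embryo number as covariate, 3 with samples of 2 or more embryos, and 1 to 3 when each array was left out (3 without wild-type replicate 1). Over every probe set it was 1, with 0 under the log2 6 filter and 1 to 2 when each array was left out (2 without wild-type replicate 3). Of the 9 members 7 read lower, and 6 to 8 did under the alternatives that measured all of them. The labels state no pairing by replicate number. Deviations of samples with the same number correlated at 0.382, −0.193 and 0.105, too few values to show whether the samples were paired. With the replicate block 1 gene passed, no member was called, and Flt3 and Satb1 differed by −0.601 and −0.617. Wild-type replicate 4 has no partner in that block, and leaving it out gave the same differences.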

Other observations

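Other lineage genes and interferon genes give the surroundings of the lymphoid members. Of 15 measured granulocyte and monocyte markers 10 read lower and 5 higher in TFIIA nc/nc, with a median of −0.10, and 0 passed the adjusted threshold in limma. The protease Prtn3 read 7.72, 7.88 and 8.05 in TFIIA nc/nc, against 8.11, 8.71, 9.34 and 9.43 in wild type (difference −1.01, SE 0.30), and lysozyme, Lyz2, differed by −0.82 (SE 0.25) and the repressor Gfi1 by −0.77 (SE 0.29). Of 11 megakaryocyte and erythroid markers 3 read lower and 8 higher, with a median of 0.10. The smallest p-values belonged to carbonic anhydrase Car1 at 1.04 (SE 0.41), Vwf at −0.40 (SE 0.20) and Alas2 at −0.19 (SE 0.15). Car1 read 3.83, 4.71 and 2.58 in TFIIA nc/nc, against 2.42 to 2.79 in wild type, so replicate 3 lay within the wild-type range. Alas2 lay under the median of every array. Of 12 stem cell genes 7 read lower and 5 higher, with a median of −0.18, and the smallest p-values belonged to Mllt3 at −0.77 (SE 0.25), the protein C receptor Procr at −0.77 (SE 0.29) and Hlf at −0.49 (SE 0.21).

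Of the interferon-stimulated genes, 15 of 18 measured read lower and 3 higher in TFIIA nc/nc, with a median of −0.28. Rsad2, Irf1 and Psmb8 differed by −0.80, −0.52 and −0.63, each without overlap between the genotypes. In all 4 genes of the list were lower without overlap, beside 3.07% of all genes, and 1 was higher, beside 3.23%, Bst2 at 0.525 (SE 0.254), named after its values were seen. The marker lists of other cells held more genes higher than lower, beside 51.8% of all genes lower. Of 15 sinusoidal endothelial markers 14 read higher (median 1.41, by smallest p Plvap at 1.78, Cdh5 at 1.85 and Stab2 at 2.24), of 12 hepatic markers 9 (median 0.42, by smallest p Ahsg at 0.475, Apoa1 at 0.94 and Krt18 at −0.58), and of 13 macrophage markers 12 (median 0.56, by smallest p Lgmn at 1.83, Vcam1 at 2.00 and Hmox1 at 1.14). No gene of these lists passed the adjusted threshold in limma. The endothelial count and median do not show a rise with genotype, since the list mean crossed the groups. It was 3.63 in TFIIA nc/nc replicate 3, inside the wild-type range of 3.53 to 6.80, whose top was wild-type replicate 1. Apoa1 likewise read 2.94 in TFIIA nc/nc replicate 3, inside its wild-type range of 2.77 to 2.97.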
